A study of Mus musculus with 6 samples.

Results

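The serpins are a family of proteins that share one fold, and their genes were examined in mouse hepatocytes 4 days after the transcription factor Sox4 was delivered to the liver. Members were chosen by symbol alone: every gene whose symbol reads Serpin, followed by a clade letter from a to i and a number, was taken, pseudogenes included. This gave 69 genes of 53599 in the count table. Clade A held 29 of them and clade B 29, and the 11 genes of clades C to I made up the rest.

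RNA-seq of hepatocytes was used to compare 2 groups of 3 mice. The Sox4 group had received AAV8-TBG-HA-Sox4-P2A-Cre, an adeno-associated virus that carries HA-tagged mouse Sox4 joined to Cre recombinase by a self-cleaving peptide. The control group, empty vector (EV), had received AAV8-TBG-Cre, which carries Cre without Sox4. The methods name as empty vector a plasmid with a guide RNA backbone, and the Sox4 vector was built on another plasmid. Cells were collected 4 days after injection by perfusing the liver with liberase and were enriched on Percoll, a density medium. The labels give the EV mice as WT and the others as Sox4, whereas the methods of the study describe male mice with a Cre-activated Cas9 and EGFP cassette at Rosa26. Cre, the viral capsid and the promoter were therefore common to both groups. The methods give an age of 4 to 8 weeks for mice in which Sox4 was expressed from such vectors. TBG stands for thyroxine-binding globulin, and its promoter, which is active in hepatocytes, belongs to the serpin gene named Serpina7 in the mouse. The labels number the libraries 1 to 3 in each group without saying more of the animals, so the p-values below measure the spread between these libraries.

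Most serpins are protease inhibitors of an unusual kind. A loop near the carboxyl end, the reactive centre loop, is offered to the protease as bait. When the loop is cut, the serpin changes shape and traps the enzyme, so the bases that encode the loop largely set which protease is caught. The liver secretes serpins of clade A and of clades C to G into plasma, where they restrain neutrophil elastase, the clotting cascade, plasmin and complement. Some members of the family inhibit nothing and carry hormones or fold collagen instead, and the serpins of clade B stay inside the cell. The mouse has expanded the genes for alpha-1-antitrypsin (Serpina1) and for relatives of alpha-1-antichymotrypsin (Serpina3) into clusters of close copies on chromosome 12.

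The copies of each cluster differ in the bait. The stretches below are 75 coding bases that begin at the conserved hinge of the loop, read from GENCODE M21 transcripts (GRCm38), a build older than GRCm39, to which the authors aligned. Positions count from the first base of the start codon, and run from 1150 to 1224 in Serpina1a and from 1081 to 1155 in the other 4 copies. Capitals mark the 15 positions at which the Serpina1 copies are not all alike.
Serpina1a: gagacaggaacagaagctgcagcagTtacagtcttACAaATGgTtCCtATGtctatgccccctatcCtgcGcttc
Serpina1b: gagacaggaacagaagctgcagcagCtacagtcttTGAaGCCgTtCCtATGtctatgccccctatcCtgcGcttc
Serpina1c: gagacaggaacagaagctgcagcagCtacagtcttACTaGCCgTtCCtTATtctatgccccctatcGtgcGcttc
Serpina1d: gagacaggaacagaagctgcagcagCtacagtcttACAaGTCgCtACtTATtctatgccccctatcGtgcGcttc
Serpina1e: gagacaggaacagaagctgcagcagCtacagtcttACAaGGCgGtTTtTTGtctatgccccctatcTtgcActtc
Over their whole coding sequence Serpina1b, Serpina1c, Serpina1d and Serpina1e were 96.3% to 96.7% identical to each other. Serpina1a, whose longest reading frame is 1311 bases against 1242, was 91.5% to 93.3% identical to them. Identity was taken as a percentage of the longer frame, so the extra bases of Serpina1a lower its values. They do not show that its shared coding bases differ more. The 3 expressed Serpina3 copies differed at 32 of the 75 bases, here capitalised by the same rule.
Serpina3k: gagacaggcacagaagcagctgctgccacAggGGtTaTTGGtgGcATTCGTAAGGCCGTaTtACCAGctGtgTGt
Serpina3m: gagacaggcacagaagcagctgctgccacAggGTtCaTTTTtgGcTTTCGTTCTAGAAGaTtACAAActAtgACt
Serpina3n: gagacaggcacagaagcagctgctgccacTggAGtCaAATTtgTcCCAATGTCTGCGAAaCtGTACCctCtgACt
Positions run from 1099 to 1173 in Serpina3k and from 1093 to 1167 in the other 2. This likeness limits the counts. Of all stretches of 50 exonic bases, 79.3% in Serpina1c, 67.4% in Serpina1a, 50.9% in Serpina1d, 35.8% in Serpina1b and 35.6% in Serpina1e also occur in another gene, against 14.0% in Serpina3k, 19.1% in Serpina3m and 6.9% in Serpina3n. How reads that match several copies were counted is not given in the sources used here, so the values of single Serpina1 copies are uncertain and their sum is given beside them.

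The promoters of the Serpina1 copies were nearly as alike, which is why they are shown next to the loops. The sequences are RefSeq stretches of 120 bases that end just before the gene start (GRCm38.p6), and capitals mark a run of 55 bases that all 5 copies share and that no other promoter of the 32851 in that table contains.
Serpina1a promoter: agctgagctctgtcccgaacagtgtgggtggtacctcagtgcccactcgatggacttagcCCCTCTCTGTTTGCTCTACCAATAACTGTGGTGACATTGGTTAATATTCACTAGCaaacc
Serpina1d promoter: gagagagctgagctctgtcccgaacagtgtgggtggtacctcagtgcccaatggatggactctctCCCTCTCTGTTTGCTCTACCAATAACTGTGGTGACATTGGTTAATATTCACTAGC
Serpina1e promoter: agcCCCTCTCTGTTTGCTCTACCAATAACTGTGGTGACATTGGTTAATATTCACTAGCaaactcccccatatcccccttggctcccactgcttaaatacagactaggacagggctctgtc
They lie on the minus strand at chr12:103863620-103863739, chr12:103773634-103773753 and chr12:103956898-103957017. The run begins 60 bases before the start of Serpina1a, 65 before Serpina1b, 66 before Serpina1c, 55 before Serpina1d and 117 before Serpina1e. Over the 250 bases before the start, Serpina1a to Serpina1d were 88.0% to 93.2% identical when aligned, and Serpina1e was 72.4% to 77.6% identical to them. These are percentages of all 250 bases, and the window of Serpina1e is shifted, since the run begins 117 bases before its start. Part of that window has no counterpart in the others, so its lower values do not measure how far its sequence differs.

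Sox4 was examined first, as the delivered gene. It had 2, 0 and 3 counts in the EV libraries and 21697, 15097 and 11816 counts in the Sox4 libraries, which matches the labels. The libraries held 15090629 to 16964860 counts, and levels are given as CPM, counts relative to a library of 1000000 after the library sizes had been corrected by the TMM method (trimmed mean of M-values). Changes between groups were tested with the edgeR quasi-likelihood test over 12691 genes, with Benjamini-Hochberg adjusted p under 0.05 as the threshold, and "rose" and "fell" are used only of genes past it. The scaling matters here. The mean corrected size of a Sox4 library was 1.48 times that of an EV library, against 1.07 times for the uncorrected totals. Scaled by library size alone, all log2 fold changes therefore lie higher, with a median over all genes of 0.51 in place of 0.04. Among 6990 genes past the threshold, 3684 were higher and 3306 lower with TMM, against 6468 and 1624 of 8092 with library size alone.

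Serpin transcripts made up a smaller part of the RNA in the Sox4 libraries. They held 3.69%, 3.46% and 3.82% of all counts in EV 1 to 3 and 1.64%, 1.53% and 1.27% in Sox4 1 to 3. The groups did not overlap, and the means were 3.65% ± 0.182 and 1.48% ± 0.194 (SD, n = 3; exact two-sided permutation p = 0.1, the smallest that 3 against 3 allows). This share does not depend on a scaling factor. The Serpina3 group went from 1.43% ± 0.0763 to 0.285% ± 0.0179 of all counts and the Serpina1 group from 1.68% ± 0.112 to 0.798% ± 0.150, whereas the other 49 genes went from 0.548% ± 0.0121 to 0.396% ± 0.0328. Serpina3k alone held 36.2% ± 0.789 of the serpin counts in EV and 15.02% ± 0.945 in Sox4. In bulk RNA, fewer cells of a type and less RNA per cell cannot be told apart.

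**Figure D1:**
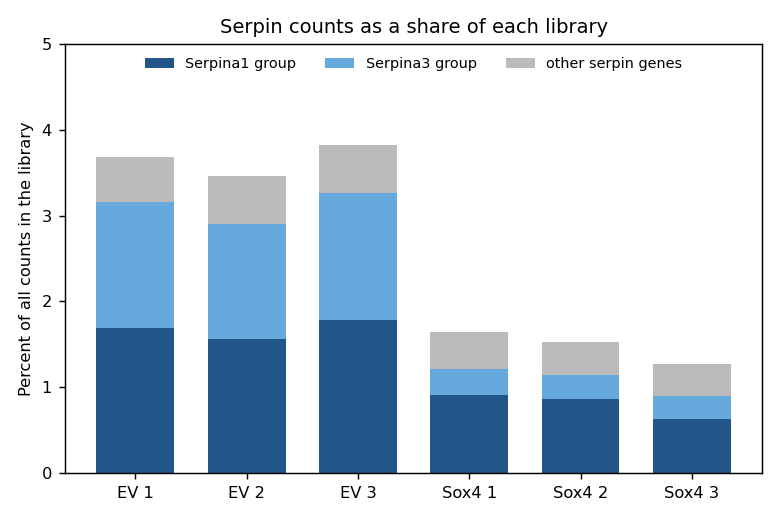
Stacked bars give the percent of all counts in each of the 6 libraries that fell on the Serpina1 group (6 genes), the Serpina3 group (14 genes) and the other 49 serpin genes. The EV bars reach 3.46% to 3.82% and the Sox4 bars 1.27% to 1.64%, and the Serpina3 part shrinks most.

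Of the 69 genes, 27 passed the filter on low counts and were tested, 27 had no count in any library and 15 had counts too low to test. Among the 27 tested, 20 fell, 5 rose and 2 did not pass the threshold. Of all genes tested 55.1% passed it, 26.0% lower and 29.0% higher. The median log2 fold change of the tested serpins was -1.11 against 0.04 for all genes, and with library size alone it was -0.65 against 0.51. At least 2-fold falls were seen in 15 of the tested serpins, and all 5 that rose did so by at least 2-fold (11.9% and 16.5% of all genes). In each of the 25 the 3 libraries of one group lay above the 3 of the other, as they did in 63.0% of all genes, 29.9% with Sox4 lower and 33.1% with Sox4 higher. Serpinh1, Serpina4-ps1 and Serpinb1a had fewer than 10 counts in at least 2 libraries of one group and so passed the filter through the other group. Serpina12 had 4 counts in Sox4 3, so its Sox4 libraries alone would not have met the filter.

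**Figure D2:**
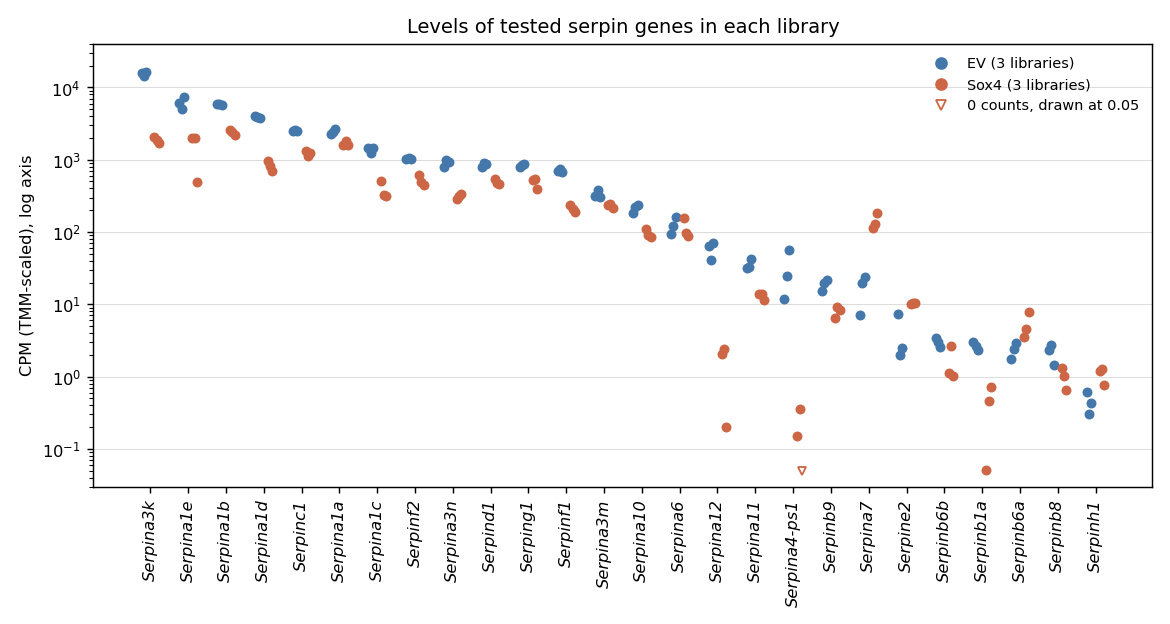
Each point is the level of a tested serpin gene in 1 library, as CPM on a log axis, for 3 EV and 3 Sox4 libraries, with genes in order of their EV mean; an open triangle stands for 0 counts. Levels span from a mean of 15570.0 CPM for Serpina3k to 0.452 CPM for Serpinh1 in EV, and the Sox4 points lie below the EV points for 20 of the 26 genes drawn and above them for Serpina7, Serpine2, Serpinb6a and Serpinh1.

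The largest single loss of serpin RNA was in Serpina3k, also called contrapsin, an inhibitor of trypsin-like proteases. Serpina3k stood at 15862, 14595 and 16251 CPM in EV and at 2068, 1849.8 and 1729 CPM in Sox4, so that 12.1% of the EV level was left (log2 fold change -3.05, SE 0.09, adjusted p = 1.11e-06). It was the gene with the 6th highest mean level of all in EV and the 38th in Sox4. Serpina3n, an inhibitor of granzyme B and cathepsin G that rises in inflammation, had 793, 1001 and 941 CPM in EV and 283, 312 and 339.6 CPM in Sox4 (log2 fold change -1.55, SE 0.13, adjusted p = 2.26e-05). Serpina3m, the third copy expressed here, had 319.6, 376 and 304 CPM in EV and 234, 246 and 214 CPM in Sox4, a smaller fall (log2 fold change -0.53, SE 0.11, adjusted p = 0.00698). With library size alone Serpina3m was at -0.06 and did not pass the threshold (adjusted p = 0.71). The summed counts of the 14 Serpina3 genes fell as well (log2 fold change -2.79, SE 0.06, adjusted p = 1.45e-06).

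The make-up of the Serpina3 group shifted with the fall. Serpina3k held 93.4%, 91.4% and 92.9% of the group's counts in EV and 80.0%, 76.8% and 75.7% in Sox4. Serpina3m made up 1.99% ± 0.321 of the group in EV and 9.53% ± 0.6004 in Sox4, and Serpina3n 5.44% ± 0.799 and 12.9% ± 1.96. The log2 ratio of Serpina3m to the rest of its group was higher by 2.38 in Sox4, and the groups did not overlap in any of the 3 copies. For these and the 7 other such ratios, of the Serpina1 and Serpinb6 copies, the exact two-sided permutation p was 0.1 for each, the smallest possible, and 0.1 after Benjamini-Hochberg adjustment over the 10.

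All 5 expressed copies of Serpina1, the mouse genes for alpha-1-antitrypsin, fell. Their loops differ, and which protease each copy inhibits was not tested. Serpina1b stood at 5855, 5963 and 5679 CPM in EV and 2607, 2392 and 2226 CPM in Sox4 (log2 fold change -1.28, SE 0.07, adjusted p = 7.73e-05). Serpina1d had 4048, 3851 and 3762 CPM in EV and 956, 817 and 695 CPM in Sox4 (log2 fold change -2.24, SE 0.14, adjusted p = 5.86e-06). The gap between the groups in Serpina1d was thus much wider than the spread within either. Serpina1c had 1464, 1258 and 1431 CPM in EV and 513, 323 and 318 CPM in Sox4 (log2 fold change -1.85, SE 0.24, adjusted p = 5.81e-05). Of its exonic bases 31.5% lie in an overlapping annotated gene, B430119L08Rik, which summing the copies does not remove. Serpina1a had 2258, 2404 and 2675 CPM in EV and 1613, 1809.7 and 1595 CPM in Sox4, the smallest fall of the 5 (log2 fold change -0.55, SE 0.09, adjusted p = 0.00976). With library size alone Serpina1a was at -0.08 (adjusted p = 0.65), so its fall rests on the scaling. Serpina1e was the most variable copy, with 6058, 5109 and 7483 CPM in EV and 2013, 1999.5 and 494 CPM in Sox4. Its low value in Sox4 3 left a wide error (log2 fold change -2.05, SE 0.69, adjusted p = 0.0136), and it missed the threshold without EV replicate 3 (adjusted p = 0.0514) and without Sox4 replicate 1 (adjusted p = 0.0611). The sixth gene, Serpina1f, had no counts.

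Summed over the copies, so that the split of shared reads among them no longer matters, the Serpina1 group had 19682, 18587 and 21029 CPM in EV and 7702, 7344 and 5326 CPM in Sox4. The fall in this sum was intermediate among those of the copies (log2 fold change -1.54, SE 0.17, adjusted p = 1.13e-04). Within the group, Serpina1a went from 12.4% ± 0.790 of the counts to 25.2% ± 4.52, and Serpina1b from 29.6% ± 2.54 to 36.1% ± 4.98. Serpina1d went from 19.7% ± 1.59 to 12.2% ± 0.971, Serpina1e from 31.3% ± 4.07 to 20.9% ± 10.1 and Serpina1c from 7.003% ± 0.376 to 5.68% ± 1.16. The log2 ratio to the other copies, the variable Serpina1e among them, was higher by 1.24 in Serpina1a and lower by 0.82 in Serpina1d, without overlap between groups. These ratios carry the same uncertainty about shared reads as the copies.

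**Figure D3:**
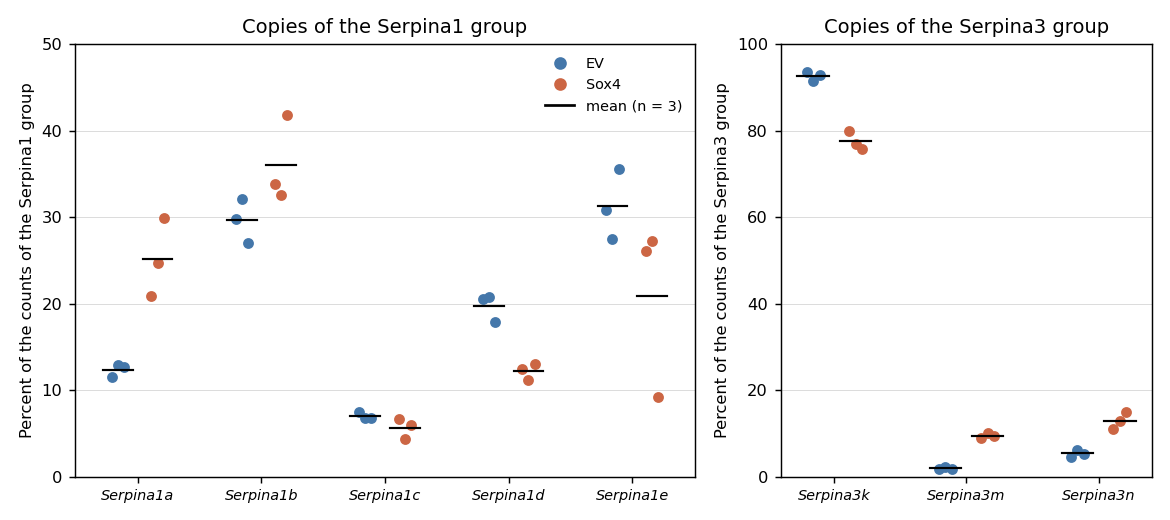
Points give the percent of a group's counts held by each copy in each library, with the mean of 3 libraries as a bar, for the Serpina1 group (left, axis to 50%) and the Serpina3 group (right, axis to 100%). Serpina1a goes from a mean of 12.4% to 25.2% and Serpina3k from 92.6% to 77.5%, and 1 Sox4 library holds 9.28% of Serpina1e while the other 2 hold over 26%.

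The other serpins of clade A include 2 hormone carriers that inhibit no protease. Serpina7 encodes thyroxine-binding globulin, the main plasma carrier of thyroid hormone. It had 7.09, 19.7 and 23.5 CPM in EV and 115, 128 and 184 CPM in Sox4, every Sox4 library being well above every EV library (log2 fold change 3.09, SE 0.57, adjusted p = 0.00145). It was the one gene of clade A that rose. Serpina6, corticosteroid-binding globulin, had 93.2, 122 and 160.5 CPM in EV and 159, 98.3 and 88.6 CPM in Sox4. These ranges overlapped, and the log2 fold change of -0.12 (SE 0.34, adjusted p = 0.716) became 0.35 with library size alone (adjusted p = 0.261).

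The promoter of Serpina7 is shown because that gene goes against its clade. The 120 bases before its start lie on the minus strand at chrX:139085237-139085356 (RefSeq, GRCm38.p6), and capitals mark CTTTGT, the reverse complement of ACAAAG, a core that factors of the Sox family can bind.
Serpina7 promoter: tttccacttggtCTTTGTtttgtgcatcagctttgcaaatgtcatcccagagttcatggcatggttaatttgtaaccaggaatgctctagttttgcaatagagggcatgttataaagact
A match of this kind is a description and not a binding site. ACAAAG was found on either strand in 18.7% of all 32851 promoters in the table, each reaching from 250 bases before to 50 after the start, and in 28.6% of the 63 promoters of 54 serpin genes, several of which belong to the same gene. Beside Serpina7 it was found in Serpine2 and Serpinb6a, which rose, and in Serpina11, Serpina12, Serpinb9 and Serpind1, which fell. A second core, ACAATG, was in 12.6% of all promoters and 11.1% of those of serpins. TTGCNNAA, a core for factors of the C/EBP family, was in 10.8% and 26.98% of them. Among tested serpins it was found in Serpina1a, Serpina1b, Serpina1d, Serpina1e, Serpina12 and Serpinc1, which fell, and in Serpina7, which rose, and not in Serpina1c. TTCNNNGAA, a core for STAT factors, was in 8.3% and 17.5%. CAAAGTCCA, a core for HNF4A, was in 0.475% of all promoters and a core for HNF1 in 0.399%, and neither was in any of the 63 serpin promoters, which says only that these letters are not in these windows. No one of the 6 motifs contains another.

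The remaining tested genes of clade A fell, the steepest of them from modest levels. Serpina12, vaspin, a secreted inhibitor of kallikrein 7 best known from fat tissue, had 63.5, 41.2 and 70.0 CPM in EV and 2.06, 2.40 and 0.203 CPM in Sox4, or 2.67% of the EV level (log2 fold change -5.22, SE 0.98, adjusted p = 5.93e-04). Serpina4-ps1, named as a pseudogene, had 155, 319 and 784 counts in EV and 3, 7 and 0 in Sox4. Its EV libraries differed widely and its fitted log2 fold change of -7.46 (SE 0.87, adjusted p = 0.00117) depends on the prior count added to low values, with -6.70 without EV replicate 3 and -8.54 without Sox4 replicate 2. Serpina10, the protein Z-dependent inhibitor of clotting factor Xa, had 183, 225 and 233 CPM in EV and 110.0, 91.1 and 84.5 CPM in Sox4 (log2 fold change -1.16, SE 0.16, adjusted p = 1.22e-04). Serpina11 had 32.1, 33.2 and 42.6 CPM in EV and 14.0, 13.8 and 11.4 CPM in Sox4 (log2 fold change -1.46, SE 0.16, adjusted p = 4.51e-05), and 40.8% of its exonic bases lie in an overlapping annotated gene, Gm28577. Of the 28 serpin genes annotated on chromosome 12, 13 were tested, 12 fell and none rose, Serpina6 being the exception, whereas Serpina7 lies on chromosome X.

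All 5 plasma serpins of clades C, D, F and G fell, by 1.71-fold in Serping1 to 3.36-fold in Serpinf1. Antithrombin (Serpinc1), which blocks thrombin and factor Xa, had 2496, 2578 and 2474 CPM in EV and 1314, 1132 and 1239.9 CPM in Sox4 (log2 fold change -1.03, SE 0.06, adjusted p = 1.95e-04). Heparin cofactor II (Serpind1), a second thrombin inhibitor, had 786, 895 and 875 CPM in EV and 548, 479.8 and 454 CPM in Sox4 (log2 fold change -0.79, SE 0.10, adjusted p = 9.68e-04). Alpha-2-antiplasmin (Serpinf2), the main inhibitor of plasmin, had 1019, 1053 and 1012 CPM in EV and 614, 491 and 453 CPM in Sox4 (log2 fold change -0.98, SE 0.13, adjusted p = 4.34e-04). In each of these the Sox4 libraries kept between 48.8% and 58.0% of the EV mean. C1 inhibitor (Serping1), which holds back complement and the contact system, had 784, 855 and 869.5 CPM in EV and 523, 545 and 396 CPM in Sox4 (log2 fold change -0.78, SE 0.15, adjusted p = 0.00211). Pigment epithelium-derived factor (Serpinf1), a secreted serpin that inhibits no protease, fell furthest of the 5, from 704, 757 and 671 CPM in EV to 235, 208 and 190.1 CPM in Sox4 (log2 fold change -1.75, SE 0.10, adjusted p = 7.66e-06). With library size alone Serpind1 (-0.32, adjusted p = 0.0642) and Serping1 (-0.31, adjusted p = 0.105) no longer passed the threshold. The annotated gene Zbtb37 overlaps 34.4% of the exonic bases of Serpinc1.

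Serpine2, a gene of clade E, rose. It encodes protease nexin 1, a cell-bound inhibitor of thrombin, and had 7.32, 1.97 and 2.47 CPM in EV and 9.97, 10.6 and 10.3 CPM in Sox4 (log2 fold change 1.40, SE 0.57, adjusted p = 0.0203). EV 1 stood apart from the other 2 EV libraries, and without it the log2 fold change was 2.19. The call was lost in 4 of the 6 fits that left out 1 library, with adjusted p between 0.0523 and 0.0728 in those. Serpine3 had at most 3 counts in any library.

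Serpinh1 and the clade B genes were low in both groups. Serpinh1, the collagen chaperone HSP47, had 8, 4 and 6 counts in EV and 24, 25 and 15 in Sox4 (log2 fold change 1.24, SE 0.31, adjusted p = 0.0468). It lay just inside the threshold and left it in 5 of the 6 fits without 1 library, in DESeq2 (adjusted p = 0.0884) and in limma-voom (adjusted p = 0.0637). Serpinb6a, an intracellular inhibitor of cathepsin G, had 1.77, 2.43 and 2.90 CPM in EV and 3.56, 4.495 and 7.70 CPM in Sox4 (log2 fold change 1.14, SE 0.38, adjusted p = 0.018), and 29.3% of its exonic bases overlap Nqo2. It missed the threshold without EV replicate 1 (adjusted p = 0.0646), EV replicate 2 (adjusted p = 0.0521) or Sox4 replicate 3 (adjusted p = 0.0756). Its relative Serpinb6b had 3.39, 2.96 and 2.54 CPM in EV and 1.10, 2.61 and 1.01 CPM in Sox4, groups that overlapped (log2 fold change -0.91, SE 0.42, adjusted p = 0.0841). The ratio of Serpinb6a to the other Serpinb6 genes was higher by 2.09 on the log2 scale in Sox4 without overlap between groups, while their sum did not pass the threshold (log2 fold change 0.36, SE 0.26, adjusted p = 0.254).

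The other 3 tested genes of clade B fell. Serpinb9, an intracellular inhibitor of granzyme B, had 15.2, 20.0 and 21.5 CPM in EV and 6.37, 9.04 and 8.21 CPM in Sox4 (log2 fold change -1.26, SE 0.21, adjusted p = 3.93e-04). Serpinb1a, an inhibitor of the elastase of neutrophils, had 39, 35 and 32 counts in EV and 1, 9 and 14 in Sox4 (log2 fold change -2.69, SE 0.70, adjusted p = 0.00329), and -3.35 without Sox4 replicate 3. Serpinb8, a furin inhibitor, had 30, 36 and 20 counts in EV and 26, 20 and 13 in Sox4 (log2 fold change -1.11, SE 0.36, adjusted p = 0.0392). The raw counts of Serpinb8 overlapped and its scaled levels did not, and it lost its call in 4 of the 6 fits without 1 library and with library size alone (adjusted p = 0.185). Of the other 24 genes of clade B, 23 had no counts.

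**Figure D4:**
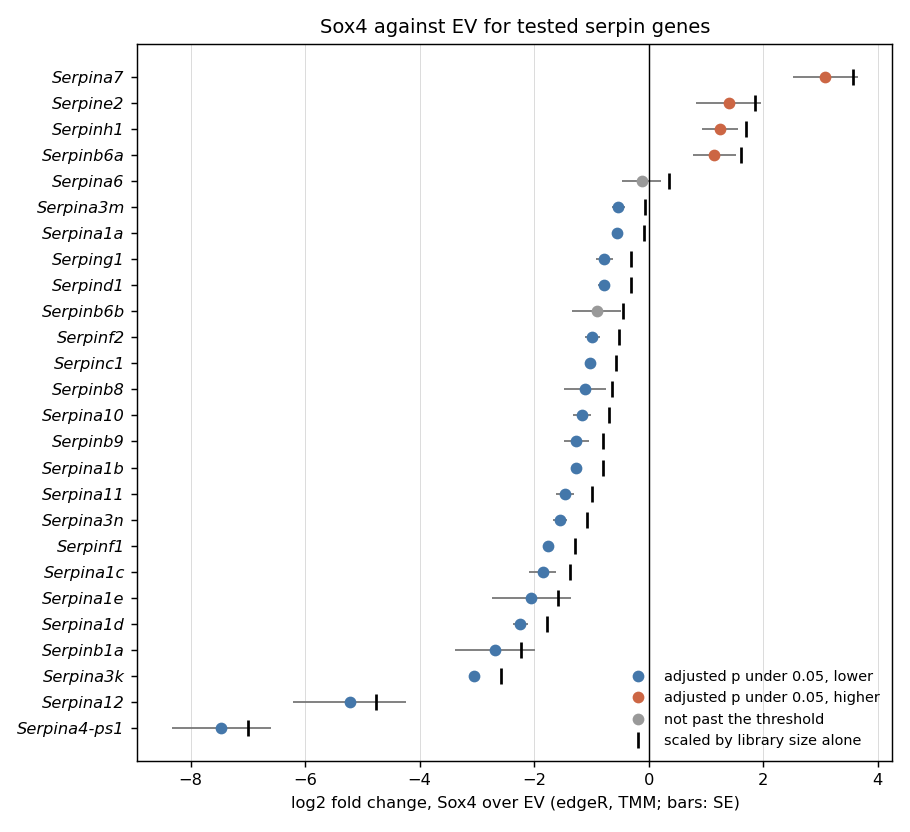
Points are log2 fold changes of Sox4 over EV from edgeR with TMM scaling for 26 tested serpins, with SE as bars and colour for the call, and black ticks are the same values with library size alone. Serpina4-ps1 at -7.46 and Serpina7 at 3.09 mark the ends, the ticks lie to the right of the points, and Serpina6 is the gene whose tick crosses 0.

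Below the filter, 5 genes reached 10 counts in at least 1 library. Serpini1, neuroserpin, an inhibitor of tissue plasminogen activator, had 0 counts in all EV libraries and 10, 14 and 9 in Sox4, which is at least 2.47-fold higher when EV is set to a floor of 3 counts per library. Serpina9 had 1, 8 and 26 counts in EV and 9, 3 and 7 in Sox4. Serpina3c had 7, 4 and 20 against 3, 1 and 6. These ranges overlap, as did those of Serpina3f, with 0, 6 and 9 counts in EV and 3, 11 and 9 in Sox4. Serpina3g had 0, 2 and 3 counts in EV and 3, 4 and 12 in Sox4. Without the filter Serpini1 and Serpina3c also passed the threshold.

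Compared per length, the serpins listed here kept their order by CPM, except that Serpina1a and Serpinc1 changed places in EV. Levels were divided by the longest reading frame in kilobases, since CPM favours long transcripts. In EV the order was Serpina3k at 12386 CPM per coding kilobase, then Serpina1e at 5005 and Serpina1b at 4696, then Serpina1d, Serpina1a, Serpinc1 and Serpina1c at 3130, 1866, 1799.5 and 1114. Serpina1e and Serpina1b were not separated beyond the spread of Serpina1e (1195 CPM, SD), nor were Serpina1a and Serpinc1, whose libraries interleaved. In Sox4 Serpina1b led at 1939, followed by Serpina3k at 1497, Serpina1a at 1276, Serpina1e at 1209.5 and Serpinc1 at 879. Serpina1a and Serpina1e had overlapping libraries there.

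The genes that work with serpins were followed in 8 lists. Of their 86 tested genes 63 passed the threshold, 15 higher and 48 lower with TMM and 27 higher and 36 lower with library size alone, beside 55.1% of all genes with TMM, 29.0% higher and 26.0% lower. Of the 14 coagulation and complement proteases, which the plasma serpins act on, 12 fell, 1 rose and 1 did not pass, with a median log2 fold change of -1.22. The steepest were Hgfac (-2.82), C1ra (-2.48), Masp2 (-2.16) and F11 (-1.95). Of the 19 tested plasma protease inhibitors outside the serpin family, 6 fell, 3 rose and 10 did not pass the threshold, with a median of -0.13, and with library size alone 7 were higher. Hrg (-2.77), Fetub (-2.61) and Itih1 (-1.99) fell, and Timp2, an inhibitor of metalloproteinases, rose (3.75) from 5 or fewer counts in each EV library. Timp2 thus passed the filter through the Sox4 group.

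In the plasminogen system, whose product plasmin is the target of Serpinf2, 3 of 8 tested genes rose and 3 fell (median -0.06, with 29.0% of all genes higher). Plat and Plaur had fewer than 10 counts in every EV library and passed the filter through the Sox4 group. Tissue plasminogen activator (Plat) had 0 counts in all EV libraries and 11, 33 and 66 in Sox4, at least 8.25-fold higher. The urokinase receptor (Plaur) had 0, 2 and 0 counts in EV and 14, 17 and 16 in Sox4, and Anxa2 rose (log2 fold change 2.998). Carboxypeptidase B2 (Cpb2), which protects clots from plasmin, fell (-1.44). Of 9 leukocyte and lysosomal proteases, 3 were tested, and Ctsb, the lysosomal protease cathepsin B, fell (log2 fold change -0.35, adjusted p = 0.0374). Its call was lost with library size alone, upper quartile factors or no filter and when EV 2, EV 3 or Sox4 2 was left out.

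For the next 3 lists too, the shares of all genes tested were 26.0% lower and 29.0% higher. Among the machinery of serpin making and export, 12 of 13 genes fell and 1 did not pass (median -1.05). These included Lman1, the cargo receptor that carries alpha-1-antitrypsin out of the endoplasmic reticulum (-1.40), and the clearance receptors Asgr2 (-1.84) and Asgr1 (-1.35). Of 8 hormone carriers and receptors 7 fell and 1 did not pass (median -0.84), led by Dio1 (-3.76), which activates thyroid hormone, and Hsd11b1 (-3.66), which regenerates glucocorticoid. The receptors for the 2 hormones that serpins carry, Nr3c1 (-1.52) and Thrb (-0.93), fell as well. Of 9 liver transcription factors 5 fell, 3 rose and 1 did not pass (median -0.53), with Cebpb (-1.40), Cebpa (-1.34) and Stat5b (-0.79) lower and Foxa1 (1.32) higher. These counts depend on the scaling. With library size alone, 9 export genes were lower and 1 higher. Of the hormone carriers and receptors 4 were then lower and 0 higher, and of the transcription factors 3 were lower and 4 higher.

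Collagens and their enzymes, the clients and partners of Serpinh1, had 5 genes higher, 3 lower and 5 not past the threshold of 13 tested (median 0.54). Of all genes tested, 29.0% were higher and 26.0% lower, which stands beside each count of collagens and of cell type markers here. Plod2 had 0 counts in EV and was at least 5.02-fold higher, and Col1a2 (2.06), Col3a1 (1.93) and Col4a1 (1.75) rose from low levels. Plod2 and Col1a2 had fewer than 10 counts in every EV library and passed the filter through the Sox4 group. The count of higher genes was 3 when EV 2, Sox4 2 or Sox4 3 was left out, and 8 when Sox4 1 or the filter was left out or with library size alone. Some markers of other cell types were higher too. The 10 stellate and fibroblast markers summed to 8.55 to 45.3 CPM in EV and 80.7 to 141 in Sox4, with 2 of 3 tested higher. Most of this sum was Reln, with a mean of 22.4 CPM of 26.8 in EV and 98.1 of 118.5 in Sox4. The mean level of all 10 was higher in Sox4, with Dcn at 2.46 CPM in EV against 10.98 in Sox4, Lrat at 0.372 against 1.59, Lum at 0.194 against 1.19 and Col1a1 at 0.147 against 0.761, while Acta2 had no counts in EV and a mean of 0.0837 CPM in Sox4. The 10 Kupffer and macrophage markers summed to 13.9 to 29.1 CPM and 30.9 to 71.0 CPM with 5 of 10 higher, and the 9 endothelial markers to 22.4 to 32.8 and 24.1 to 49.8 with 3 higher and 1 lower. The 8 cholangiocyte markers summed to 27.5 to 43.7 and 71.5 to 84.7 CPM, with 2 of 4 tested higher and Krt19 at 0 counts in every EV library. No lymphocyte, neutrophil or mesothelial marker passed the filter, nor did any platelet marker but Itga2b, which was not past the threshold. The part of these cells in the values of Serpine2, Serpinh1 and the clade B genes was not tested. Hepatocyte markers were abundant in both groups, albumin having a mean of 99191 CPM in EV against 66525 CPM in Sox4. Of the 7 tested, 4 fell.

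**Figure D5:**
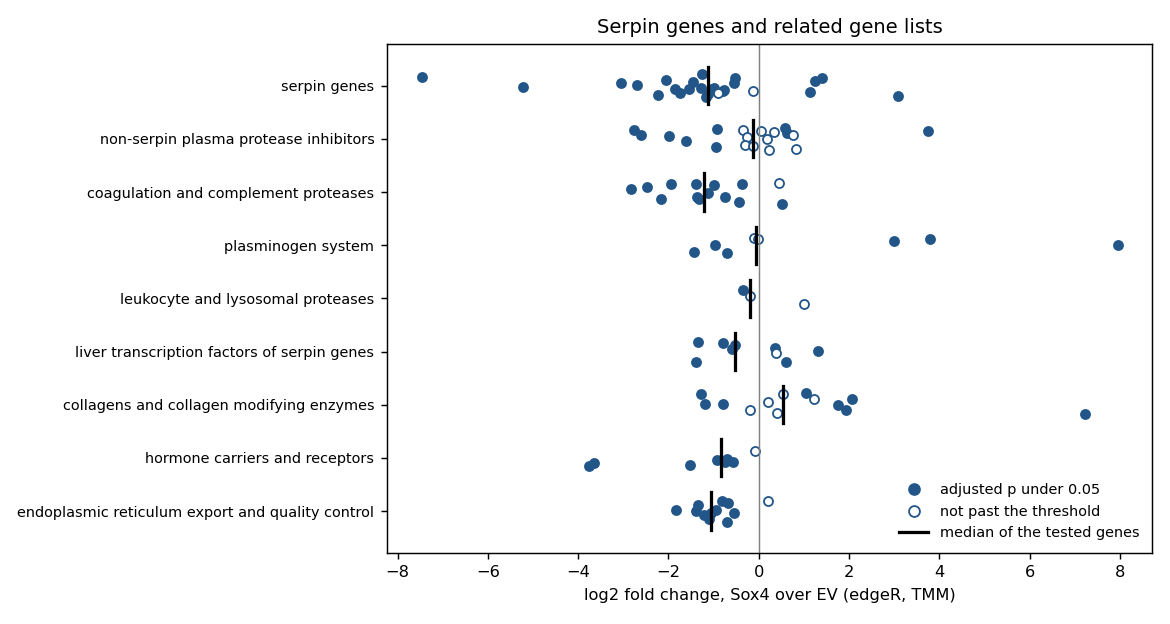
Each point is the log2 fold change of a tested gene, Sox4 over EV (edgeR, TMM), filled where adjusted p was under 0.05, with the median over all tested genes of each list as a bar and the genes not reported here left out as points. The serpins (median -1.11) lie near the coagulation and complement proteases (-1.22) and the export and clearance genes (-1.05), while the inhibitors outside the family (-0.13) and the plasminogen system (-0.06) lie near 0 and collagens and their enzymes (0.54) above it. The far right points, Plat and Plod2, had 0 counts in EV and their fitted values are not bounds.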

How the data were processed

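RNA-seq was made from 3 EV and 3 Sox4 hepatocyte libraries. The authors aligned reads to GRCm39 with STAR 2.7.10b and counted them with featureCounts 2.0.1, per the submitters' processing notes, and deposited raw counts per gene. Strand setting, annotation release and handling of reads that match several genes are not given in the sources used here. The second deposited table is a signal, those counts divided by a DESeq2 size factor for each library, which was used in 1 alternative only (limma on log2 of the value plus 1).

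The counts were fitted with edgeR 4.0.16 under R 4.3.3 (filterByExpr with a minimum count of 10 and a minimum total of 15, TMM, robust quasi-likelihood F test, Benjamini-Hochberg adjustment over 12691 genes, threshold 0.05). All adjusted p-values come from this fit except where DESeq2 1.42.0 or limma 3.58.1 is named. CPM were computed on TMM-scaled sizes and are given as mean ± SD (n = 3). The SE of a log2 fold change comes from log2 CPM with a prior count of 2. Copies of Serpina1, Serpina3, Serpinb6 and Serpinb9 were also summed before the fit. Ratios of a copy to the rest of its group used a pseudocount of 1. Total counts per library were 15090629 to 16964860, so 3 counts, taken as the floor, were 0.231 CPM or less. Floors cover counting error only. No pair of libraries within a group was alike within counting noise (chi-square per degree of freedom 18.03 to 71.3), so each was kept as a replicate. The fit was checked on simulated counts.

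The members and gene lists were chosen with earlier results of these data known. Tested members are named, with each library's value where adjusted p was under 0.05. Members below the filter are named where a library reached 10 counts, and up to 4 genes with the largest change past the threshold in each related list. Serpine3, Serpina1f, Serpina6 and Serpinb6b were described outside this rule for library values. Among the tested genes, 1 member and 1 gene of a related list are counted in totals but are not reported here. Sequences were matched by symbol, 68 of 69 members to GENCODE M21 and 54 to the RefSeq promoter table. Motifs were searched on both strands. Alternatives changed the scaling, the filter, the test, the replicates and the block.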

Additional observations from a re-analysis of the deposited data

How the results depend on the processing

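The 25 serpins past the threshold kept their direction in every alternative in which they were tested. With library size alone 20 serpins passed the threshold, 5 higher and 15 lower. DESeq2 size factors, upper quartile factors and TMM computed without the serpin genes each left 25. Without the filter 24 passed, Serpina1e (adjusted p = 0.104), Serpinb8 and Serpinh1 being lost, with a mean count of at least 50 it was 22 of 23 tested, and DESeq2, limma-voom and limma on the deposited normalized values gave 24, 25 and 25. Leaving out 1 library at a time left 21 to 23, of which 19 to 20 were lower and 2 to 4 higher. The cause of the lost calls was not tested. Serpina6, not past the threshold in any fit, changed sign to 0.35 with library size alone, 0.078 without EV replicate 3 and 0.04 without Sox4 replicate 3, and lay as low as -0.43 without Sox4 replicate 1. Serpinb6b passed the threshold with limma-voom (adjusted p = 0.0465) and without Sox4 replicate 2 (adjusted p = 0.0122). The Serpinb6 sum passed with library size alone (log2 fold change 0.82, adjusted p = 0.0159) and without Sox4 replicate 1 (adjusted p = 0.0458), and it lay between 0.14 and 0.56 with 1 library left out. In the related lists 27 genes were higher with library size alone.

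The labels give both groups replicate numbers 1 to 3. The correlations of the deviations from the group means of same-numbered libraries were 0.27, -0.09 and 0.13. These values cannot settle whether same-numbered libraries were paired or shared a batch, and the labels do not say. Over all genes, 7362 passed the threshold with the replicate number as a block, against 6990 without it. With the replicate number as a block, 24 serpins passed the threshold, with Serpinh1 (adjusted p = 0.0729) and Serpina1e (adjusted p = 0.0685) lost and Serpinb6b gained (adjusted p = 0.0487). Most genes of clades B, E, H and I had few or no counts, which limits what can be said of them. Whether sequencing depth or lack of expression lay behind this was not tested.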
